A study of Mus musculus with 6 samples.

Results

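Small RNAs of the nucleus and the long non-coding genes that host them were examined on arrays of LPS-stimulated BV2 cells with and without overexpression of PGC-1α. The members were the genes whose probes carried an accession that matched a RefSeq mouse gene named Snora, Snord, Scarna, Rnu or Snhg followed by a digit, or named Gas5, Rmrp or Rpph1. RefSeq lists 186 genes of these names, and 35 of them were matched on the array, out of 23462 genes matched in all. They fell into 21 small RNA genes and 14 host genes. All 21 small RNA genes and 12 host genes passed the filter on dim probes, and 17063 genes of the whole array did. The remaining 151 genes of these names, Gas5 among them, had no probe with a matched accession and were not analysed here. The group was chosen by its difference between arrays with and without PGC-1α, the same contrast that is given below, so that every value of this contrast for a member is a description and supports nothing.

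Small nucleolar RNAs guide the chemical modification of other RNAs. Box C/D RNAs carry methyl transfer to the ribose, box H/ACA RNAs direct the conversion of uridine to pseudouridine, and the small Cajal body RNAs (Scarna) do the same for spliceosomal RNAs. Most mammalian small nucleolar RNAs are cut out of introns of a host gene, which can code for a protein or, in the Snhg family, mainly give a spliced, polyadenylated RNA that is often degraded after translation begins. The U RNAs of the spliceosome and the RNA parts of RNase P (Rpph1) and RNase MRP (Rmrp) are transcribed from promoters of their own, by RNA polymerase II or III, and are not polyadenylated.

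BV2 cells are a line derived from mouse microglia, the macrophages of the brain, and the bacterial lipopolysaccharide LPS sets off inflammation in them. All 6 arrays held RNA of LPS-treated cells, 3 without PGC-1α overexpression, called control here, and 3 with it. By the culture methods of the study, PGC-1α was carried by a lentiviral vector named for the ubiquitin promoter (Ubi), other BV2 cells received a negative control virus, PGC-1α cells were selected with puromycin, and LPS was given at 500 ng/ml for 6 h. The arrays are not named there. The arrays were Agilent mouse expression arrays with 1 RNA sample each, and values are log2 intensities after subtraction of each array's 75th percentile. The labels do not say whether replicates came from separate cultures, so that standard errors and p-values measure the spread between these samples, which may be technical.

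The 75th percentile of the intensity lay between 1617 and 1893 for control and between 856 and 1268 for PGC-1α arrays. The second PGC-1α array was the dimmest. Ppargc1a, the gene of PGC-1α, had a pair of probes close to background. One read -6.21, -6.37 and -7.71 without and -5.70, -5.28 and -5.90 with PGC-1α, and the other differed by 0.26, with overlapping groups. Each fell to background on at least 1 array of either group, so that they checked the labels only weakly. Of 9 microglial and macrophage markers, 7 were well above background on all arrays, while Cx3cr1 and P2ry12 were not on any. Markers of other cells were measured as well, 3 of 4 for astrocytes, 2 of 4 for neurons, 3 of 4 for oligodendrocytes and 3 of 4 for fibroblasts. The summed scaled signal of the 9 microglial markers ran from 60.5 to 63.2 on control arrays and from 87.2 to 101 on the PGC-1α arrays, and that of the 4 fibroblast markers from 14.3 to 15.2 and from 24.0 to 29.1. For astrocyte markers it ran from 0.245 to 0.291 and from 0.421 to 0.537, for neuronal ones from 24.2 to 29.7 and from 36.5 to 49.8, and for oligodendrocyte ones from 1.01 to 1.12 and from 1.12 to 1.25. The brighter probes of each list carry its sum. Among all genes with a mean scaled log2 signal above 2, the median log2 difference was 0.43 under this scaling. It was 0.00 after the quantile normalization described below. The astrocyte and oligodendrocyte probes all read below that range. Marker sums were not computed after quantile normalization. Single markers went against the sums, with log2 differences of -2.68 for Tmem119 and -0.63 for Tubb3, while 3 probes of Pdgfra gave -1.63, 1.13 and -0.54. All arrays held RNA of the BV2 line, so that the other markers are not read as numbers of other cells. The part of these shifts in the results was not tested. A bulk sample cannot tell fewer cells that express a marker from less RNA of it per cell.

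Over all 17063 genes, the median log2 difference (PGC-1α minus control) was 0.23, and limma at an adjusted p of 0.05 called 36.9% of genes higher and 19.6% lower with PGC-1α. After quantile normalization, which forces the same distribution on every array, the median was 0.03 and the shares were 21.7% and 20.9%. Of the genes with a value on every array, 42.6% had all 3 PGC-1α values above all 3 control values. Among the small RNA genes 19 of 21 were called higher and 1 lower, under both scalings. Among the host genes 10 of 12 were called higher with the 75th percentile and 5 with quantile normalization, and none lower under either. The median difference was 1.09 over the small RNA genes, 0.86 above the median of all genes, and 0.70 over the host genes, 0.47 above it. With quantile normalization these distances from the median of all genes were 0.88 and 0.36. Since the members were chosen on this contrast, nothing is read from these counts.

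**Figure D1:**
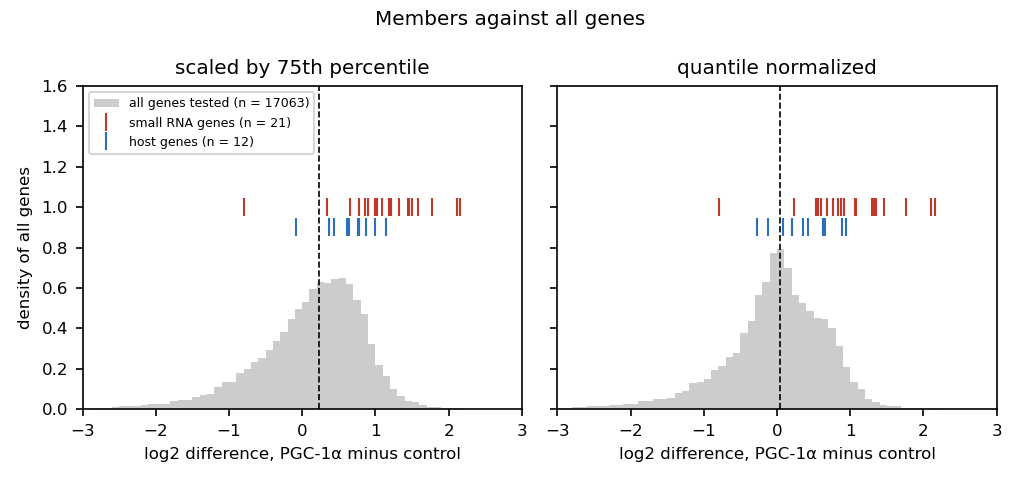
Log2 difference between PGC-1α and control arrays (x axis) for all genes tested (grey histogram, density on the y axis) and for the members (red ticks, small RNA genes; blue ticks, host genes), scaled by the 75th percentile (left) or quantile normalized (right); the dashed line is the median of all genes. The height of the ticks has no meaning. The red ticks have a median of 1.09 and 0.91 and the blue ones of 0.70 and 0.39, beside 0.23 and 0.03 for all genes.

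The box C/D RNAs were 4, and every one was higher on all 3 PGC-1α arrays than on any control array. So were 42.6% of all genes with a value on every array. Snord33 (NR_001277), a guide RNA within the ribosomal protein gene Rpl13a, read -2.67, -2.46 and -2.55 on control arrays and -0.56, -0.29 and -0.49 on the PGC-1α arrays, a difference of 2.11 ± 0.13 (SE, n = 3 and 3), or 4.33-fold. Rnu3b1 (NR_004415), a copy of the U3 RNA that takes part in the first cuts of the ribosomal RNA precursor, read 1.34, 1.33 and 1.32 against 2.87, 3.09 and 2.75, a difference of 1.58 ± 0.13. The control arrays were nearly equal for it, and the groups lay far apart relative to the spread of either. RefSeq holds several further U3 copies with their own accessions, so that this probe may read more than 1 of them.

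Snord7 (NR_028362), a guide RNA for spliceosomal U6 RNA, read -2.24, -1.97 and -2.22 without PGC-1α and -0.49, -0.95 and -0.60 with it, which differ by 1.46 ± 0.16. Snord17 (NR_030762), one of the longer box C/D RNAs, read -1.04, -1.00 and -1.19 against 0.10, 0.54 and 0.12, a difference of 1.33 ± 0.15. For both the control arrays were all below the PGC-1α arrays. Quantile normalization left the median of the 4 RNAs at 1.40, against 1.52 with the 75th percentile.

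Of the 8 box H/ACA RNAs, 7 did not overlap between the groups, all with PGC-1α higher, beside 42.6% of all genes. The median difference of the 8 was 1.05. Snora34 (NR_034051), which lies within Kansl2, read -1.38, -1.57 and -1.24 on control arrays and 0.81, 0.47 and 1.01 on the PGC-1α arrays, a difference of 2.16 ± 0.17 and the largest of the 33 members tested. Snora52 (NR_034049), within the ribosomal protein gene Rplp2, read -2.13, -2.32 and -2.67 against -0.88, 0.04 and -0.96. Its difference was 1.77 ± 0.27, and the second PGC-1α array stood well above the other 2 of its group. Snora74a (NR_002905), of the U19 family, read -4.23, -4.24 and -4.53 against -2.87, -2.97 and -2.68, a difference of 1.50 ± 0.14.

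Snora23 (NR_033336) read -0.22, -0.36 and -0.59 without and 0.42, 1.16 and 0.50 with PGC-1α, a difference of 1.09 ± 0.21. Snora81 (NR_034048) read -3.77, -3.97 and -3.91 against -2.69, -3.30 and -2.60, a difference of 1.02 ± 0.19. Both separate the groups, with the second PGC-1α array highest for Snora23 and lowest of its group for Snora81. Snora78 (NR_028515) differed by 0.90 ± 0.14, from -4.24, -4.16 and -4.21 to -3.50, -3.08 and -3.32. Snora73a (NR_028512), of the U17 family, which takes part in ribosomal RNA processing, read 0.82, 0.68 and 0.78 against 1.59, 1.55 and 1.47, a difference of 0.78 ± 0.12. These are the smallest separated differences of the class.

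Snora47 (NR_034043) was the exception among the box H/ACA RNAs. It read -3.09, -3.47 and -3.67 on control arrays and -3.19, -2.69 and -3.34 on the PGC-1α arrays. The groups overlapped, with the first control array above 2 of the PGC-1α arrays, and the difference of 0.34 ± 0.21 did not pass the threshold.

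The 2 Cajal body RNAs differed in opposite directions. Scarna13 (NR_028576) was the only small RNA gene with lower values on the PGC-1α arrays, -2.02, -1.91 and -2.06 after -1.04, -1.30 and -1.24 on the control arrays. Its difference was -0.80 ± 0.13, which corresponds to 0.574 times the control signal, and was -0.79 on slide 1 and -0.81 on slide 2. Scarna6 (NR_028519) read -4.30, -4.60 and -5.22 against -3.46, -2.81 and -3.50, a difference of 1.45 ± 0.27. It was the small RNA gene with the widest spread over the control arrays. Background correction by normexp with quantile normalization lowered the differences of dim members, to 0.69 for Scarna6, 0.74 for Snora74a, 0.44 for Snora78, 0.59 for Snora81 and 0.12 for Snora47, of which Snora47 alone was not called.

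The RNA parts of RNase P, which trims the 5′ end of transfer RNAs, and of RNase MRP, which cuts the ribosomal RNA precursor, were both higher with PGC-1α. Rmrp (NR_001460) read 2.54, 2.34 and 2.22 on control arrays and 3.39, 4.04 and 3.32 on the PGC-1α arrays, a difference of 1.22 ± 0.21. Rpph1 (NR_002142) read 0.79, 0.77 and 0.31 against 1.65, 2.22 and 1.55, a difference of 1.19 ± 0.21. In both the second PGC-1α array was the highest and the third control array the lowest, and the groups did not overlap. Quantile normalization gave 0.83 and 1.07, and the authors' values gave 0.78 for Rmrp.

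The 5 spliceosomal RNA genes were all higher, with a median difference of 0.99 that became 0.55 after quantile normalization. The 3 genes of U1, which pairs with the 5′ splice site, are near-identical copies whose signals cannot be told apart. Rnu1a1 (NR_004411) read 2.98, 2.92 and 2.73 against 3.63, 4.31 and 3.66, a difference of 0.99 ± 0.20. Rnu1b1 (NR_004412) and Rnu1b6 (NR_004413) differed by 0.99 ± 0.21 and 1.02 ± 0.22, with control values from 2.53 to 2.87 and PGC-1α values from 3.42 to 4.20. Of the 3, only Rnu1b1 lost its call under any alternative, with normexp followed by quantile normalization.

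Rnu2-10 (NR_004414), a gene of U2, which recognizes the branch point, read 1.04, 0.98 and 0.77 on control arrays and 1.36, 1.88 and 1.51 on the PGC-1α arrays, a difference of 0.66 ± 0.16. Rnu12 (NR_004432), its counterpart in the minor spliceosome, read -1.08, -1.21 and -1.58 against -0.32, -0.13 and -0.84, a difference of 0.86 ± 0.21. Neither overlapped between the groups, and the second PGC-1α array was the highest for both.

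**Figure D2:**
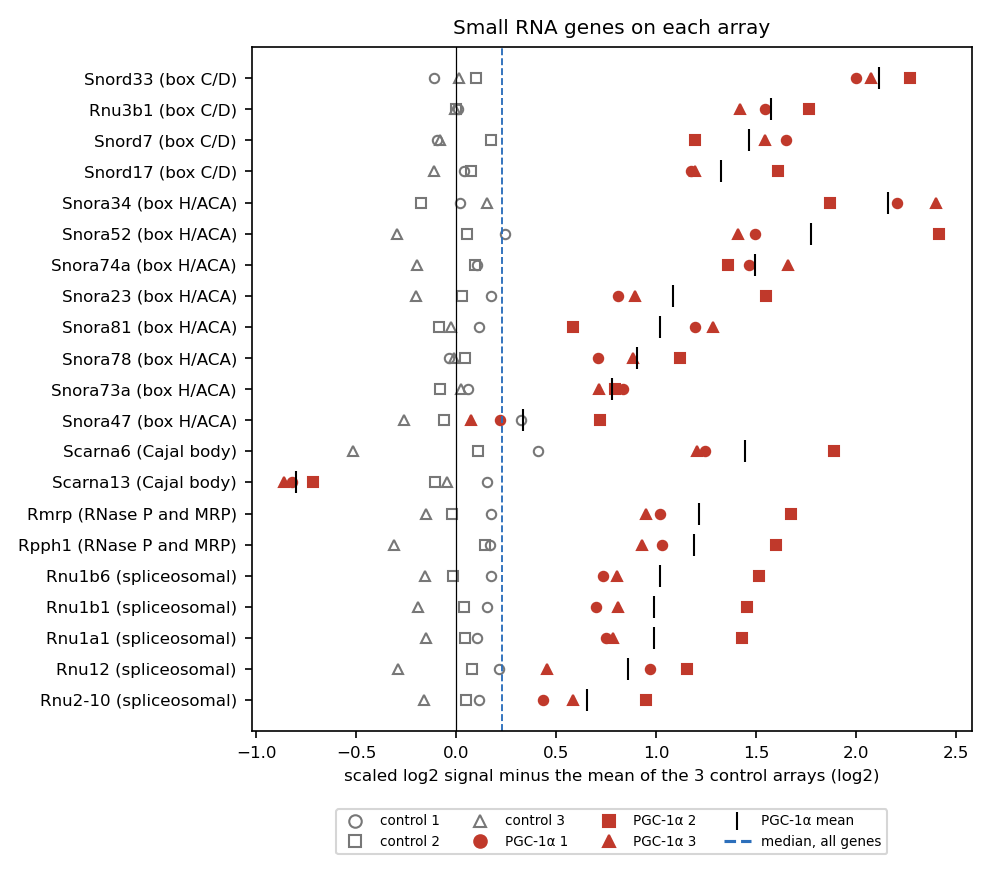
Scaled log2 signal of the 21 small RNA genes on each array minus the mean of the 3 control arrays (x axis), by class (y axis); open grey symbols are control arrays, red symbols PGC-1α arrays, the symbol shape gives the replicate, black bars are PGC-1α means and the dashed line is the median difference of all genes, 0.23. Scarna13 alone lies left of 0, at -0.80, and Snora47 alone overlaps. Among the red symbols, the squares of the second PGC-1α array lie farthest right in 16 of the 21 genes.

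The 21 small RNA genes span 82 (Snord33) to 325 bases (Rpph1) in RefSeq, with 14 under 200 bases. The 14 shorter ones had a median difference of 1.02 and the 7 longer ones of 1.22. The RNA had been purified on a clean-up column and amplified linearly. The primer of that amplification and the probe sequences are not given in the sources used here. Whether a probe read the mature small RNA, an extended precursor or the transcript of the gene around it cannot be told apart.

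The host genes are shown first by the sequence around their start, since the Snhg family is known for a run of pyrimidines at the first base of its RNA (a 5′ terminal oligopyrimidine tract), which it shares with ribosomal protein genes. RefSeq promoters were held for 12 of the 14 host genes, all but Snhg4 and Snhg6, and for none of the small RNA genes. A run of 6 or more C or T on the strand of the gene, within 10 bases before to 15 bases after the annotated start, was present in 9 of the 12, against 24.4% of all 32851 promoters held. Such a run need not begin at the first base, so that this is not a count of terminal tracts. In Snhg16, Snhg1 and Snhg5 it begins after the annotated start. The letters TATAAA were found on either strand of the 300 bases in 6 of the 12 (13.6% of all promoters). On the strand of the gene, within the 50 bases before the start, they were in Snhg5, Snhg7 and Snhg8 (2.63% of all promoters). Both strands were searched for the other motifs as well. The E-box CACGTG was present in Snhg15 and Snhg9 (7.15% of all promoters) and the ETS letters CCGGAAG in Snhg3, Snhg20, Snhg10 and Snhg9 (8.86%). The median share of G and C was 61.3% over the 12 host promoters and 52.7% over all, and its part in these counts was not tested. The letters TNAAGGTCA, bound by the estrogen-related receptors that PGC-1α coactivates, were in none of the 12 (1.28% of all promoters), which says only that these letters are not in these windows. No motif overlaps another by its letters. The windows below run from 50 bases before the start through its first 30 bases, 5′ to 3′ on the strand of the gene, in assembly GRCm38.p6. Capitals mark the pyrimidine run and, where it is present, TATAAA. They show the hosts with the 2 largest differences, Snhg16 and Snhg1, 1 further host with a long run, Snhg12, the 3 with TATAAA before the start, and Snhg15, which has neither and whose difference changed sign with the scaling.
Snhg16 (chr11:116671610-116671689, plus strand): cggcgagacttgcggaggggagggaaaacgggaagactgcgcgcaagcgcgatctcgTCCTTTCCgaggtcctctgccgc
Snhg1 (chr19:8723437-8723516, plus strand): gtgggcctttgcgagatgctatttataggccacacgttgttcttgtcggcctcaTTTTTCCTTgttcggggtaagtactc
Snhg12 (chr4:132308628-132308707, plus strand): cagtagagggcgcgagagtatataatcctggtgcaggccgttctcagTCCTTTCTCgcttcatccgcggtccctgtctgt
Snhg5 (chr9:88522868-88522947, minus strand): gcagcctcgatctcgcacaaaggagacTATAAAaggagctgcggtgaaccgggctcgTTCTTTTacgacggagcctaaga
Snhg7 (chr2:26640215-26640294, minus strand): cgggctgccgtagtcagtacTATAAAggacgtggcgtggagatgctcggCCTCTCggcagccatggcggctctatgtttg
Snhg8 (chr3:123508307-123508386, minus strand): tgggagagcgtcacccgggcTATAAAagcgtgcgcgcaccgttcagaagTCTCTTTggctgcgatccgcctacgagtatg
Snhg15 (chr11:6528731-6528810, minus strand): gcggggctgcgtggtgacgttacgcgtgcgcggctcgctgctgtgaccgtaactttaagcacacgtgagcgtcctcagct

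The host genes with the largest differences were Snhg16 and Snhg1. Snhg16 (NR_027821) read 1.20, 1.31 and 1.39 on control arrays and 2.44, 2.33 and 2.56 on the PGC-1α arrays, a difference of 1.14 ± 0.13, or 2.21-fold. Snhg1 (NR_002896), the host of a cluster of box C/D RNAs, read 0.66, 0.75 and 0.88 against 1.76, 1.81 and 1.72, a difference of 1.00 ± 0.12. Both groups were tight for these genes. With quantile normalization the differences were 0.94 and 0.89.

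Snhg20 (NR_027059) read 1.62, 1.76 and 1.81 without and 2.76, 2.40 and 2.63 with PGC-1α, a difference of 0.87 ± 0.14. Snhg12 (NR_029468) read 1.09, 1.04 and 1.39 against 2.05, 1.77 and 2.03, a difference of 0.78 ± 0.15, and Snhg5 (NR_040721) read 0.79, 0.94 and 1.15 against 1.92, 1.44 and 1.83, a difference of 0.77 ± 0.17. In each of the 3 the groups did not overlap and the second PGC-1α array was the lowest of its group. Snhg1, Snhg5, Snhg12, Snhg16 and Snhg20 were the 5 hosts that passed the threshold under both scalings.

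Another 5 hosts passed the threshold with the 75th percentile and not after quantile normalization. Snhg9 (NR_027900) read 3.59, 3.68 and 4.04 against 4.30, 4.63 and 4.66, a difference of 0.76 ± 0.17 that became 0.20. Snhg6 (NR_024067) read 3.71, 3.84 and 4.06 against 4.49, 4.56 and 4.47, a difference of 0.63 ± 0.13 that became 0.08. Snhg7 (NR_024068) read 2.57, 2.87 and 3.06 against 3.33, 3.47 and 3.58, a difference of 0.62 ± 0.16 that became 0.21. All 3 were bright and did not overlap with the 75th percentile.

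Snhg8 (NR_028574) had values on 2 PGC-1α arrays, since an outlier spot was left out. It read 1.58, 1.36 and 1.44 against 1.96 and 2.18 on the remaining 2 PGC-1α arrays, a difference of 0.61 ± 0.15 (n = 3 and 2). Snhg15 (NR_045893) read 3.80, 3.69 and 4.08 against 4.15, 4.49 and 4.23, a difference of 0.44 ± 0.15. That of Snhg15 became -0.12 after quantile normalization, so that its direction is not settled.

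Snhg10 and Snhg4 did not pass the threshold with the 75th percentile. Snhg10 (NR_003145) read -0.05, -0.01 and 0.14 against 0.14, 0.52 and 0.52, a difference of 0.37 ± 0.15, with the third control and the first PGC-1α array almost level. Snhg4 (NR_038073) read -4.53, -4.77 and -3.77 against -4.34, -5.29 and -3.71, which overlap, and the difference was -0.09 ± 0.40. Its arrays differed more within a group than the groups did. Of the untested hosts, Snhg3 (NR_003270) read 1.02, 1.44 and 1.41 on control arrays and 2.25 on the single PGC-1α array that kept a value, and Snhg18 (NR_038186) was not well above background on any array.

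**Figure D3:**
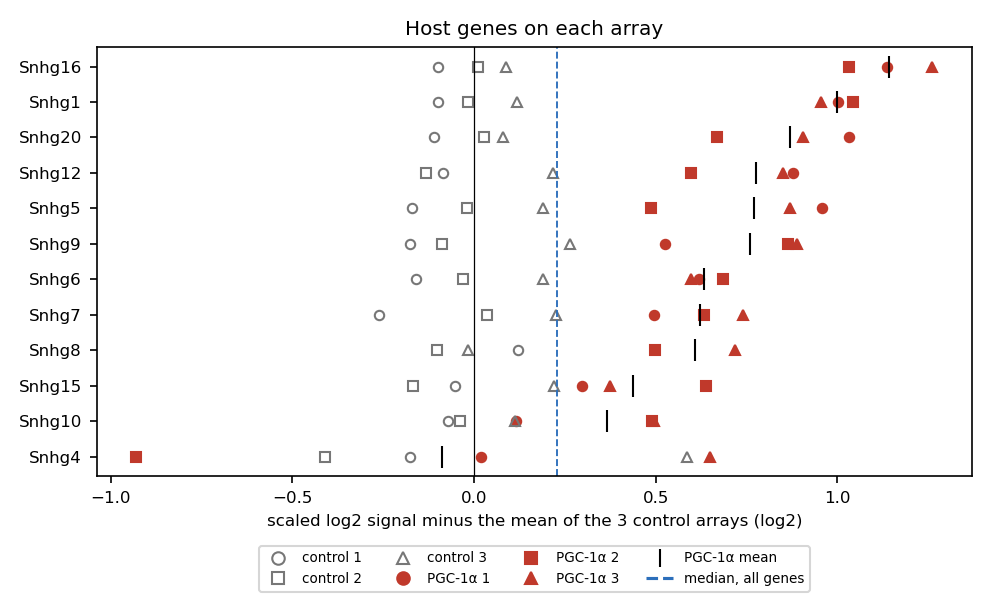
Scaled log2 signal of the 12 host genes tested on each array minus the mean of the 3 control arrays (x axis), in order of their difference (y axis); symbols and lines as in the plot of the small RNA genes. Snhg16 and Snhg1 lie farthest right, at 1.14 and 1.00, the red squares of the second PGC-1α array lie farthest right in 3 of the 12 genes, and Snhg4 alone is centred left of 0, at -0.09.

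Brightness and scaling moved together with part of these values. Among all genes with a mean scaled log2 signal above 2, the median difference was 0.43 with the 75th percentile and 0.00 after quantile normalization. In the same range, 5 small RNA genes had medians of 1.02 and 0.59 and 5 host genes of 0.63 and 0.20. Between 0 and 2 the medians of all genes were 0.05 and -0.04, those of 4 small RNA genes 0.93 and 0.87, and those of 6 host genes 0.77 and 0.64. Between -2 and 0, where no host gene lay, the medians of all genes were -0.13 and -0.10 and those of 7 small RNA genes 1.46 and 1.47. Below -2 all genes had medians of 0.45 and 0.29, and 5 small RNA genes of 1.02 and 0.91. The 5 bright hosts were Snhg6, Snhg7, Snhg9 and Snhg15, which lost the call, and Snhg20, which kept it.

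Both slides held both groups. On slide 1, with 2 arrays of each group, the median difference was 1.08 over the small RNA genes and 0.78 over the host genes, and on slide 2, with 1 array of each, it was 1.10 and 0.63. The medians of all genes were 0.24 and 0.19. Within slides the box C/D RNAs had medians of 1.52 and 1.53, the box H/ACA RNAs of 0.99 and 1.20, and the spliceosomal RNAs of 0.98 and 0.93.

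The spread within each group was not used to choose the members. On the second PGC-1α array 16 of the 21 small RNA genes had the highest value of the group, while 3 of the 12 host genes and 56.5% of all genes did. Its median deviation from the mean of the PGC-1α arrays was 0.29 over the small RNA genes, -0.05 over the host genes and 0.10 over all genes. On the third control array 14 of the 21 small RNA genes and none of the 12 host genes had the lowest value of the group, against 47.5% of all genes. The highest value of the group was there for 11 of the 12 host genes and for 4920 of all 17063 genes. The median deviations there were -0.15 over the small RNA genes, 0.19 over the host genes and -0.04 over all genes. On the third PGC-1α array, the only other array on slide 2, the median deviation over the small RNA genes was -0.16 (17 of 21 below the group mean). It was 0.10 over the host genes (9 of 12 above) and -0.06 over all genes (10510 of 16993 below). On both arrays of slide 2 the small RNA genes thus stood mostly below their group means, as did most of all genes. The host genes stood mostly above theirs, and the part of the slide in this was not tested. Genes measured on 1 array are not independent replicates, and these counts have no test.

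The small RNA genes did not all follow the second PGC-1α array. All 5 spliceosomal RNAs, Rmrp, Rpph1 and both Cajal body RNAs had their highest PGC-1α value there, and so did 3 of the 4 box C/D RNAs and 4 of the 8 box H/ACA RNAs. Snord7, Snora34, Snora74a and Snora81 had their lowest. Without this array the difference of Rnu1a1 was 0.77, that of Rmrp 0.98, that of Snora23 0.85 and that of Snora52 1.45, while Snora34 came to 2.30 and Snora81 to 1.24. It was the dimmest array, with a 75th percentile of 856, and the part of its brightness in this pattern was not tested.

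**Figure D4:**
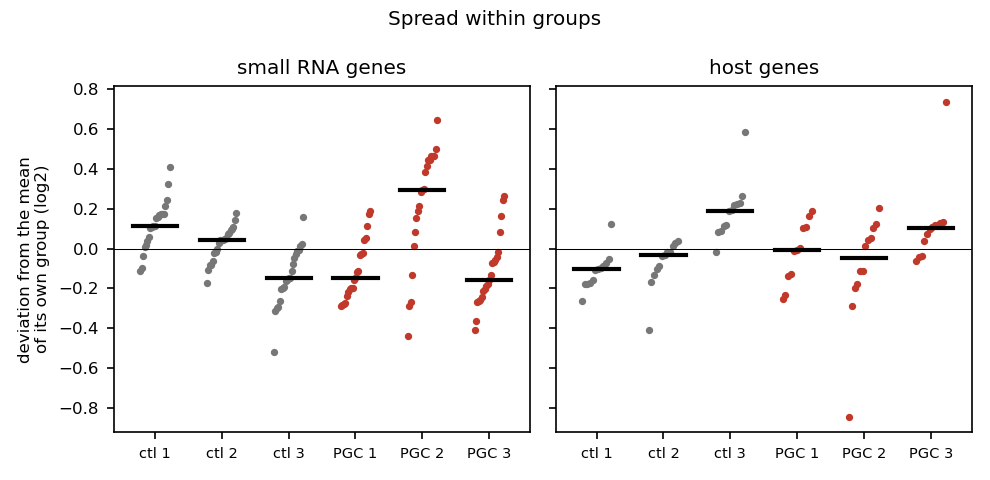
Deviation of each gene from the mean of its own group in log2 units (y axis) on the 3 control arrays (ctl, grey) and the 3 PGC-1α arrays (PGC, red), for 21 small RNA genes (left) and 12 host genes (right); each point is a gene and black bars are medians. The bar of the second PGC-1α array stands at 0.29 on the left and -0.05 on the right, and that of the third control array at -0.15 and 0.19.

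All 14 nucleolar and Cajal body RNAs lie within the RefSeq span of another gene, and the gene around them was tested for 12. Rnu3b1, Snord7 and Snora78 lie within a further gene each, which was left out. That of Snora78, Rps2, differed by 0.62 ± 0.13, and by 0.01 after quantile normalization. Strand was not compared, and span alone does not say that the RNA is cut from that transcript; U3 genes have promoters of their own. The median difference was 1.39 over these 12 small RNAs and 0.36 over the genes around them, which ran from -0.51 (Zbed3, around Snora47) to 0.76 (Snhg9, around Snora78). For 11 of 12 the small RNA had the larger difference, and for 11 of 12 after quantile normalization, where the medians were 1.31 and 0.07. The ratio of the small RNA to the gene around it, which does not depend on the percentile subtracted from an array but does change with quantile normalization, was higher on all PGC-1α arrays than on any control array for 8 and lower for Scarna13 in Snhg10. No share of such ratios over all genes was computed. The members entered by this contrast, so this too is a description.

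Snora34 differed by 2.16 and Kansl2, a subunit of a histone acetyltransferase complex, by 0.45 ± 0.11. Snora52 differed by 1.77 and Rplp2 by 0.40 ± 0.13. Rnu3b1 differed by 1.58 and Tex14 by 0.28 ± 0.15. After quantile normalization the genes around them stood at -0.01 (Kansl2), -0.20 (Rplp2) and 0.10 (Tex14), so that the direction of Kansl2 and Rplp2 is not settled. Snora74a differed by 1.50 and Snhg4 by -0.09 ± 0.40. In Atg16l1, an autophagy gene at 0.10 ± 0.15, Scarna6 stood at 1.45. The pair with the closest values was Snora78, at 0.90, in Snhg9, at 0.76 ± 0.17. Scarna13, at -0.80, and Snhg10, at 0.37 ± 0.15, lay on opposite sides of 0. The genes around Snord33 (Rpl13a) and Snora73a (Snhg3) had no tested probe.

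**Figure D5:**
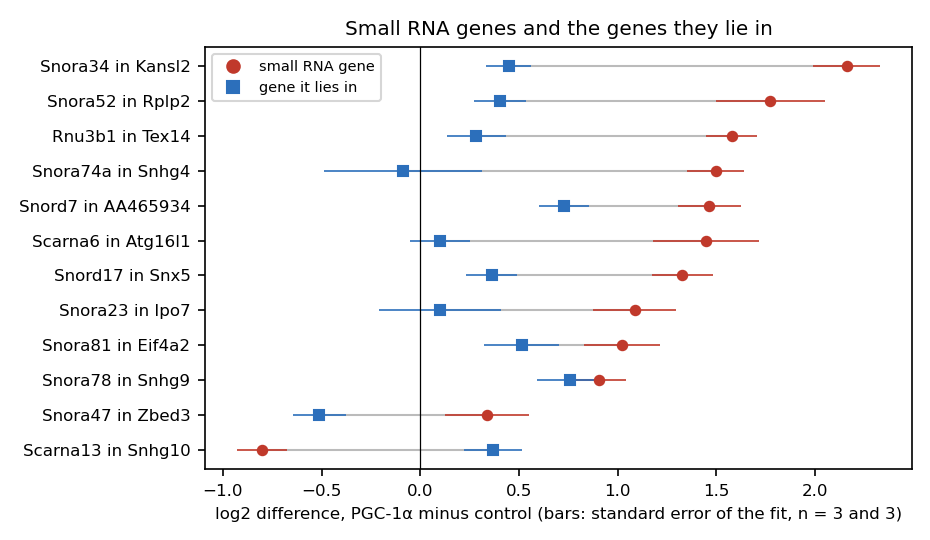
Log2 difference between PGC-1α and control arrays (x axis) of 12 small RNA genes (red circles) and the gene taken as the one around each (blue squares), with standard errors of the fit as bars (n = 3 and 3). Red lies right of blue in 11 of the 12 pairs, by 1.71 for Snora34 in Kansl2 and 0.15 for Snora78 in Snhg9, and left of it for Scarna13 in Snhg10.

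The proteins that build, carry, transcribe and degrade these RNAs were not part of the rule. Of 147 such genes in 11 lists, 142 were tested, and limma called 36 higher (25.4%) and 33 lower (23.2%) with PGC-1α, beside 36.9% and 19.6% of all genes. Their median difference was 0.11, which is 0.12 below that of all genes. After quantile normalization 10 were higher and 38 lower, beside 21.7% and 20.9% of all genes. The shares of all genes under each scaling also stand beside the counts of the single lists below. Leaving out the second control array gave 18 higher, and leaving out the third control or the first PGC-1α array gave 23. The untested genes were Nhp2, Nopchap1, Rpp14, Snrpd1 and Lsm7.

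Among the core proteins of the nucleolar particles, 2 of 4 box C/D proteins rose and none fell, Snu13 by 0.43 ± 0.15 (limma adjusted p = 0.0437) and Nop56 by 0.34 ± 0.11 (limma adjusted p = 0.0302). Of the 3 box H/ACA proteins, Nop10 rose by 0.63 ± 0.11 (limma adjusted p = 0.00289). None of the 3 passed after quantile normalization, where Snu13 stood at -0.06 and Nop56 at -0.13. Of 9 assembly factors none rose and 3 fell. They included Shq1, at -1.58 ± 0.14 (limma adjusted p = 0.000169), and Naf1, at -1.10 ± 0.20 (limma adjusted p = 0.00295), which act in the assembly of box H/ACA particles. Both kept their value and call after quantile normalization, at -1.60 and -1.15.

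Of 14 genes of the Cajal body and of small RNA transport, 2 rose and 6 fell. Gemin4 and Gemin6, of the SMN complex that loads Sm proteins onto spliceosomal RNAs, fell by 2.23 ± 0.14 and 1.06 ± 0.15. Smn1 and Strap rose by 0.51 ± 0.13 and 0.52 ± 0.14, Strap with n = 2 and 3. The 2 rises did not pass after quantile normalization, at 0.19 and 0.10. Of the 10 proteins of RNase P and RNase MRP, 3 rose and 3 fell. Rpp38 fell by 1.22 ± 0.12 and Rpp25l by 0.71 ± 0.13, whereas Pop5 rose by 0.47 ± 0.14 and Rpp25 by 0.38 ± 0.14, neither of them after quantile normalization.

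Of 22 genes for the transcription and 3′ end formation of small nuclear RNAs, 1 rose and 7 fell, with a median of -0.18. Snapc5, a subunit of the activating complex of these promoters, rose by 0.49 ± 0.13, and the Integrator subunits Ints5 and Ints7 fell by 1.49 ± 0.19 and 1.09 ± 0.14. Of 21 genes of the RNA polymerase III machinery 3 rose and 7 fell, with a median of -0.24. The polymerase subunits Polr3g and Polr3k rose by 1.04 ± 0.13 and 0.67 ± 0.16, Polr3k with n = 2 and 3. Maf1, the repressor of this polymerase, fell by 1.01 ± 0.17 and Gtf3c4, of the initiation factor TFIIIC, by 0.72 ± 0.13. All 7 named here passed under both scalings.

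Of 24 Sm, LSm and other spliceosomal particle proteins, 12 rose and 2 fell, and after quantile normalization 3 rose and 3 fell. Snrpb2, of the U2 particle, rose by 0.87 ± 0.14 (n = 2 and 3). The Sm protein Snrpg rose by 0.77 ± 0.13, and was 0.20 and not called after quantile normalization. Lsm10, of the U7 particle, fell by 1.03 ± 0.13 and Prpf4, of the U4/U6 particle, by 0.56 ± 0.15. Of 7 minor spliceosome proteins 2 rose and 2 fell. Snrnp35 was at -0.75 ± 0.12 under the 75th percentile and -0.82 after quantile normalization, while Zcrb1 at 0.40 ± 0.14, Snrnp48 at 0.40 ± 0.15 and Pdcd7 at -0.35 ± 0.13 passed only under the first scaling.

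Of 18 genes for the trimming and turnover of small RNAs, 4 rose and 2 fell, whereas 2 rose and 5 fell after quantile normalization. The exosome subunits Exosc2 and Exosc3 rose by 0.83 ± 0.13 and 0.74 ± 0.15, Exosc2 not passing after quantile normalization, at 0.22. The deadenylase Toe1 fell by 1.00 ± 0.15 and the poly(A) polymerase Tent4a by 0.80 ± 0.13. Nonsense-mediated decay, which degrades spliced host RNAs, was represented by 10 genes, of which 6 rose and 1 fell, and 2 rose and 1 fell after quantile normalization. Upf2 rose by 1.00 ± 0.27 and Smg5 by 0.51 ± 0.12, which became 0.34 and was not called after quantile normalization. Smg8 fell by 1.11 ± 0.24.

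Other short structured RNAs of the nucleus and cytoplasm were set beside the members. All 7 that the array held were called higher, and 5 after quantile normalization, with a median difference of 0.91. Of all genes, 36.9% and 21.7% were called higher. The 7 were Rn7sk, Vaultrc5, Terc, Rn7s1, Rprl1, Rprl2 and Rprl3. The Rprl genes share a family name, and their likeness to the member Rpph1 was not tested. The 7 are therefore not counted as separate RNAs unrelated to the members. Rn7sk, the RNA that holds the elongation factor P-TEFb inactive, read 1.08, 1.30 and 1.09 on control arrays and 2.96, 3.18 and 2.92 on the PGC-1α arrays, a difference of 1.86 ± 0.13 (limma adjusted p = 6.35e-05). Vaultrc5, the vault RNA, read -4.19, -4.07 and -4.55 against -3.18, -2.98 and -3.56, a difference of 1.03 ± 0.19 (limma adjusted p = 0.00338). The groups overlapped for neither. The list was chosen with earlier results of these data known. The second PGC-1α array was the highest of its group for 6 of the 7, and the third control array the lowest for 5 of the 7.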

How the data were processed

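RNA of 6 samples of LPS-treated BV2 cells was measured on 1-colour Agilent arrays, 3 per group, with groups and replicate numbers from the sample titles. Each array was also assigned to a slide, which the titles do not give. The authors' scanner software (Feature Extraction 11.5.1.1) had subtracted background from each spot, and these intensity values were deposited unscaled. A second deposited table, used as an alternative, gives the authors' log2 values for 42110 probes after normalization in GeneSpring, whose procedure is not given further. Its columns have nearly equal medians (8.29) and follow the log2 intensity of their own array across probes at r = 0.999 to 1.00.

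Spots marked as outliers (149 to 1590 of 62976 per array) were left out, repeated spots averaged, and log2 intensity was set relative to the 75th percentile of each array's 59305 spots other than controls. Accessions of 33767 of 56605 probes matched a RefSeq symbol (GRCm38.p6), with no probe matching several. Tested probes needed at least 2 values in each group and a signal well above background on the 3 arrays of 1 group; each gene was read from its brightest tested probe. Groups were compared with lmFit and eBayes in limma 3.58.1 (R 4.3.3), with p-values two-sided and adjusted by Benjamini-Hochberg over 17063 genes at a threshold of 0.05. Tables and plots were made with Python 3.11.15, pandas 2.3.3 and matplotlib 3.10.9, and the fit was tested on simulated data. With 3 against 3 arrays, an exact permutation test of a single value cannot go below p = 0.1.

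The members and lists were chosen with earlier results of these data known. Every member is accounted for. From each partner list the text names up to 2 genes with the largest positive and 2 with the largest negative difference among called genes whose groups do not overlap and that exceeded background in both groups. Limits are the number of arrays, background for dim probes, and unknown probe sequences. Replicate numbers were not used to pair arrays.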

Additional observations from a re-analysis of the deposited data

How the results depend on the processing

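The small RNA genes called higher numbered 19 under every alternative except normexp background correction followed by quantile normalization, where they were 18, and their median distance from all genes ran from 0.70 to 0.99. The host genes called higher fell from 10 to 5 with quantile normalization, to 6 with normexp and quantile normalization, and to 6 with the authors' values, while their median distance from all genes ran from 0.35 to 0.59. Leaving out each array in turn gave 8 to 10 host genes. Partner protein genes called higher, 36, came to 10 with quantile normalization, 19 with median scaling, 11 with normexp and quantile normalization, 23 with no filter on dim probes and 11 with the authors' values. Without single arrays they were 18 to 31 and lowest without the second control array (18), with 23 without the third control or the first PGC-1α array. Snhg15 reversed to -0.12 with quantile normalization, to -0.11 with normexp and quantile normalization and to -0.14 with the authors' values. Snhg4, never called, was 0.24 with normexp and the 75th percentile, and -0.45 to 0.33 without single arrays. Of the 33 members tested, 25 kept direction and call under all alternatives and 31 their direction. The deviations of same-numbered arrays from their group means correlated at -0.16, 0.07 and 0.60. The arrays behind the 0.60 were also the only arrays of slide 2, so that replicate number and slide cannot be told apart there. Whether replicate numbers pair the arrays is therefore not decided by these values. With a replicate block 19 small RNA genes, 11 host genes and 38 partner genes were higher, Snhg10 being added. The causes of these shifts were not tested. Normexp with quantile normalization lowered dim members by over 1.5 times without ending a call (Scarna6 to 0.69, Snora74a to 0.74, Snora78 to 0.44, Snora81 to 0.59).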
